A study of Mus musculus with 6 samples.

Results

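Tet1, Tet2 and Tet3 are the genes of the 3 TET dioxygenases, and their loci were read in cells labelled as lacking Tet2 and Tet3 and in wild-type cells. The loci were fixed by position on the mouse build mm9: chr3:133100000-133235000 for Tet2, chr6:83290000-83420000 for Tet3 and chr10:62240000-62375000 for Tet1. They held 4694 of the 20451903 CpGs listed (1223 in Tet2, 1912 in Tet3 and 1559 in Tet1) and 398 of 2335885 autosomal 1 kb windows with a listed CpG, which is 0.017%. Of these windows, 192 (42 in Tet2, 87 in Tet3 and 63 in Tet1) had at least 3 CpGs and at least 20 reads in every sample, as the window test needed.

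The samples were LSK cells (lineage marker-negative cells of the bone marrow that carry Sca-1 and c-Kit, a gate that contains stem and early progenitor cells of the blood) from Tet2/3 DKO mice (DKO, 3 samples) and from wild-type mice (WT, 3 samples). The study set the methylomes of the 2 genotypes against each other. The labels name biological replicates without saying whether each was a single animal, and they give neither the age of the mice nor how, or in which cells, the alleles were deleted. The assay was bisulfite sequencing of the whole genome, in which 5-methylcytosine and 5-hydroxymethylcytosine both read as methylated, so a level is the sum of both marks.

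The DKO samples averaged 4.99, 5.46 and 4.09 reads per CpG, and the WT samples 3.47, 3.56 and 3.46. Single CpGs were thus read coarsely, and WT levels carried the larger counting error. A level is given as methylated reads over all reads, summed over the CpGs of a region, in percent, and differences are DKO minus WT in percentage points. A read that covers several CpGs is counted at each of them, so read counts of a region can exceed the number of molecules. Over all autosomes the level was 81.9, 80.7 and 82.3% in DKO and 81.0, 80.5 and 81.1% in WT. With 3 samples against 3, a two-sided exact permutation test cannot go below p = 0.1, so no single region could pass 0.05 by it. No expression values were used here, so the identity of the sorted cells was not checked against markers.

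TET proteins are iron- and alpha-ketoglutarate-dependent enzymes that oxidise 5-methylcytosine to 5-hydroxymethylcytosine and further to formyl and carboxyl forms, which thymine DNA glycosylase can remove so that base excision repair restores cytosine. Tet2 is among the genes most often mutated in human myeloid disease, and Tet3 is expressed alongside it in blood cells. Tet1 and a long form of Tet3 carry a CXXC domain that binds unmethylated CpG-rich DNA, whereas Tet2 lacks one and its ancestral CXXC module is the separate gene Cxxc4.

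All 3 genes run on the minus strand. Each promoter was located on mm9 by matching the CpG spacing of its RefSeq sequence to the CpGs listed, which gave 1 place for each. The 300 bases of each promoter, 250 before and 50 after the start, are shown because their CpG content differed widely between the genes and because their methylation is compared further on. The sequences are from RefSeq on GRCm38.p6, on the gene's strand, with CpGs in capitals.
Tet2: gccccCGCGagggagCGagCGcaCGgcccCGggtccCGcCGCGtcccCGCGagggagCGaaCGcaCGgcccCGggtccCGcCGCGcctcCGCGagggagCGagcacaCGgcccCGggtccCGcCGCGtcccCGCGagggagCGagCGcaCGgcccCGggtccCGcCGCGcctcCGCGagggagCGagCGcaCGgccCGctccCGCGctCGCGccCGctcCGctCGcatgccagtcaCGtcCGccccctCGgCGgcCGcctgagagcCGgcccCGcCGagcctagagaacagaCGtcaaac
Tet3: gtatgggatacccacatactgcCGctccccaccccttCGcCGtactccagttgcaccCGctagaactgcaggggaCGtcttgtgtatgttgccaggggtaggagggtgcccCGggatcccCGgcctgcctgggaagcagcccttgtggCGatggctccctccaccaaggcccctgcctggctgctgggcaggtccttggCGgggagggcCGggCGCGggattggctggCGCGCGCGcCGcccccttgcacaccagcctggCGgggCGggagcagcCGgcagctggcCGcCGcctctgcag
Tet1: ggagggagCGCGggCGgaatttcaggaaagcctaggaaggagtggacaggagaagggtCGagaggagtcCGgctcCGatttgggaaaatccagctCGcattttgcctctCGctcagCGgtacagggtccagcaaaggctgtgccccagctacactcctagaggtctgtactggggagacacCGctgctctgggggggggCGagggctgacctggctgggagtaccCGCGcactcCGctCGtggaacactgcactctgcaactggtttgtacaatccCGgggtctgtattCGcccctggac
The Tet2 promoter held 57 CpGs, and only 0.152% of the 32851 RefSeq promoters held as many or more. The Tet3 promoter held 22 CpGs, a number reached by 23.1% of promoters, and the Tet1 promoter held 17, reached by 31.4%. The RefSeq record of Tet3 begins 15530 bases upstream of the promoter shown, and the sequence at that other start is not shown. The median promoter held 7. The Tet2 sequence was also repetitive: shifted by 42 bases against itself it was identical at 67.8% of positions, whereas the best shifts of Tet3 and Tet1 gave 37.7% and 33.1%. On mm9 the gene starts lay at position 133207354 of chromosome 3 for Tet2, 83391672 of chromosome 6 for Tet3 and 62350072 of chromosome 10 for Tet1.

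The labelled genotypes were checked first, in the reads themselves. Both targeted genes held a segment of at least 20 successive CpGs with no read in any DKO sample, and Tet1 held no such segment. In Tet2 the segment ran over 44 CpGs at chr3:133131848-133136995 (5148 bp), 70359 to 75506 bases downstream of the gene start. The DKO samples had 0, 0 and 0 reads there, against 130, 191 and 162 reads in the WT samples. The empty run had the same first and last CpG in each DKO sample taken alone. The WT samples sat near their genomic depth, at 0.834, 1.19 and 1.04 times their autosomal mean of reads per CpG. A count of 0 allowed a depth of up to 1.34, 1.22 and 1.63% of that mean in DKO replicates 1, 2 and 3, for counting error only. These limits take the counts at neighbouring CpGs as independent, and they are too tight where 1 read covers several CpGs.

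In Tet3 the segment ran over 50 CpGs at chr6:83353141-83355177 (2037 bp), 36495 to 38531 bases downstream of the start. The DKO samples had 0, 0 and 0 reads, against 126, 121 and 118 in the WT samples, which were at 0.711, 0.665 and 0.667 times the autosomal mean. The limits from a count of 0, on the same assumption, were 1.18, 1.07 and 1.44% in DKO replicates 1, 2 and 3. Unlike in Tet2, the DKO samples did not share their edges. DKO replicates 2 and 3 lacked reads over 76 and 78 CpGs, beginning at position 83352142 in both and ending at 83355332 in replicate 2 and at 83355588 in replicate 3. Some CpGs at these edges had few reads in WT too. The WT samples had 2, 2 and 2 reads at 83352142, 2, 0 and 0 at 83355331, and 1, 9 and 5 at 83355587. The edges thus also depend on coverage, and whether the DNA without reads ends differently between DKO samples was not tested. DKO replicate 1 had 14 reads between positions 83352142 and 83353045, all of them methylated, with 6 at the first of these CpGs and 1 at each of 8 others. Reads are counted per CpG, so the counts at those 8 can come from the same molecule. Over the 78 CpGs of the longest of these stretches, relative depth was 0.0478, 0.0183 and 0 in the DKO samples and 0.799, 0.892 and 0.659 in the WT samples.

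**Figure D1:**
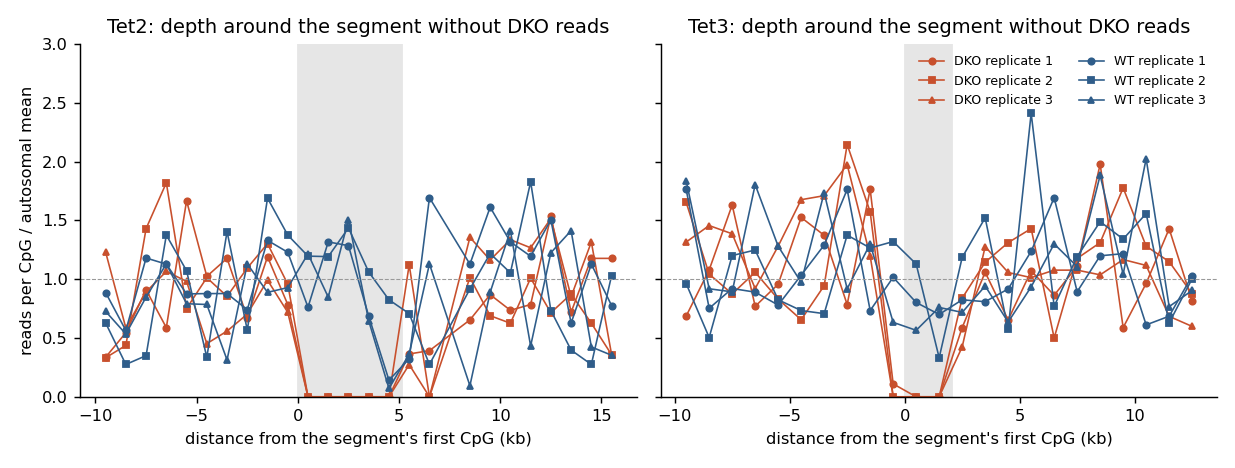
Reads per listed CpG over the autosomal mean of each sample (vertical axis) in 1 kb steps by distance from the first CpG of the segment without DKO reads (horizontal axis, kb; shaded: the segment), for Tet2 (left) and Tet3 (right). Each line is 1 sample. The 3 DKO lines lie at 0 over the shaded segments, where the WT lines lie above it, and in Tet3 the DKO lines are already at or near 0 in the 1 kb before the segment.

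These were the longest such runs on the autosomes. Of 92 runs of at least 20 successive CpGs with no read in any DKO sample, the Tet3 run of 50 CpGs and the Tet2 run of 44 were the longest, and the longest elsewhere held 40. The WT samples together had 7.3 reads per CpG in the Tet3 run and 10.98 in the Tet2 run, against 1.475 in that run of 40. Every WT sample had at least 30 reads in 4 of the 92 runs, the Tet2 and Tet3 runs among them. Another of these, chr12:21834754-21834877 with 21 CpGs, had 9.524 WT reads per CpG. The opposite search, for runs with no read in any WT sample, gave 283 runs, the longest of 85 CpGs, and within the Tet loci none longer than 11 CpGs. In 21 of the 283 runs every DKO sample had at least 30 reads, so empty runs that the other group read well were not confined to the Tet loci.

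In Tet1, the member that the genotype leaves intact, the longest empty run was 2 CpGs in either group. The Tet1 interval was read at 1, 1.01 and 0.993 times the autosomal mean in DKO and 0.946, 0.989 and 0.96 times in WT. Averaged over their intervals outside the segments, the other loci were also read at near-normal depth. Tet2 was at 0.962, 0.925 and 0.928 times in DKO and 0.849, 0.886 and 0.864 times in WT. Tet3 was at 0.938, 1.09 and 1.04 times in DKO and 0.921, 0.968 and 1.01 times in WT. The 5 kb on the low side of the Tet3 segment was read less in DKO, at 0.761, 0.579 and 0.819 times, against 1.09, 1.13 and 0.938 times in WT. Since the segments were delimited by the DKO reads, their depths are a description and were not tested. Exons in the segments are not named, because no annotation on mm9 was used.

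Within 5 kb of the segments, Tet3 was more methylated in DKO than in WT without overlap between the groups, and Tet2 was not. The segment DNA itself was highly methylated in WT, at 87.7, 90.6 and 95.1% in Tet2 (91.1% ± 3.71, SD, n = 3) and 98.4, 95.9 and 98.3% in Tet3 (97.5% ± 1.44, SD, n = 3). In the 5 kb on each side of the Tet3 segment, the DKO samples were at 91.0, 89.8 and 91.1% and the WT samples at 85.6, 78.1 and 80.7%. The groups did not overlap and differed by 9.17 points (SE 2.23; exact permutation p = 0.1, the lowest possible). On the high-coordinate side, towards the promoter, the level was 87.0% ± 1.25 in DKO and 73.5% ± 4.64 in WT (SD, n = 3 each; exact p = 0.1). On the other side it was 96.9% ± 1.57 in DKO and 91.9% ± 2.84 in WT (SD, n = 3 each; exact p = 0.1). The first side was thus 13.5 points higher in DKO and the other 5.0 points higher, and neither overlapped. On that other side the 1 kb nearest the segment held 14, 0 and 0 reads in DKO and 90, 120 and 56 in WT. Its 5 kb level was thus read over unlike CpGs in the groups. Over the 16 CpGs there with reads in every sample, weighted equally, it was 97.8% in DKO and 90.0% in WT without overlap. That weighting was added after the data were seen. The 1 kb directly beside the segment went the other way, by -5.03 points with overlapping groups, and DKO replicates 2 and 3 had no read on its low side. Over 10 kb on each side the groups overlapped, at 86.7, 86.8 and 85.9% in DKO and 86.0, 79.8 and 78.4% in WT (5.05 points, exact permutation p = 0.2), and the low side alone differed by 0.719 points with overlap. The high side alone did not overlap over 10 kb, at 79.9, 80.8 and 79.5% in DKO and 78.3, 69.1 and 66.0% in WT (8.92 points, exact permutation p = 0.1).

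Beside the Tet2 segment the DKO samples were at 95.1, 93.6 and 95.2% and the WT samples at 93.0, 97.8 and 95.7%. These groups overlapped and differed by -0.894 points (SE 1.49; exact permutation p = 0.6). On the low-coordinate side alone, with each CpG weighted equally over those read in every sample, a weighting added after the data were seen, DKO was the lower without overlap, at 94.4% ± 0.398 in DKO and 97.5% ± 0.570 in WT (SD, n = 3 each; exact p = 0.1).

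Within the Tet3 flank, the windows with the wide differences lay 33.2 and 32.2 kb downstream of the gene start. The window chr6:83358001-83359000 was at 60.3, 65.3 and 70.4% in DKO and 50.9, 41.8 and 40.5% in WT. The next, chr6:83359001-83360000, was at 100, 95.7 and 95.2% in DKO and 84, 76.9 and 66.7% in WT. In both, all DKO samples exceeded all WT samples, by 20.95 and 21.1 points on average. Their adjusted p-values were 0.198 and 0.176 in the test over all autosomal windows, a quasi-binomial model with limma's moderated dispersion and Benjamini-Hochberg adjustment. Further towards the promoter, chr6:83363001-83364000 was at 40.6, 33.3 and 27.7% in DKO and 19.4, 26.2 and 23.7% in WT, again without overlap (adjusted p = 0.663). Of the 3 windows between them, chr6:83360001-83361000 was partly methylated and overlapped, at 50, 55.8 and 43.8% in DKO and 38.9, 47.1 and 24.5% in WT. The other 2 were highly methylated in both groups, as chr6:83361001-83362000 with 88.9, 90.8 and 96.8% in DKO and 95.2, 97.2 and 94.2% in WT.

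**Figure D2:**
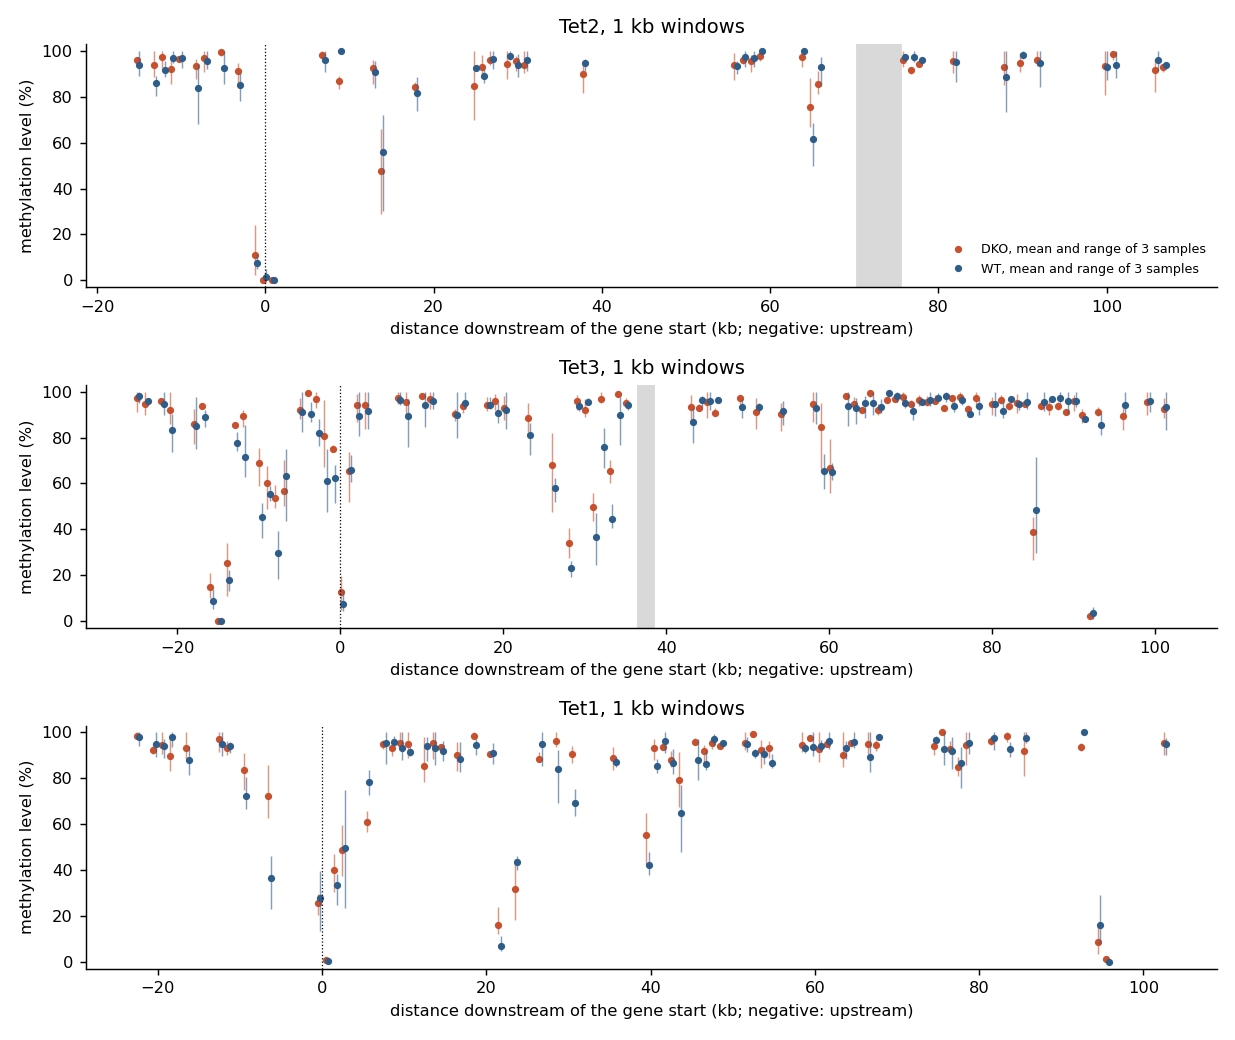
Methylation level (vertical axis, %) of the tested 1 kb windows of Tet2, Tet3 and Tet1 by distance downstream of the gene start (horizontal axis, kb; dotted line: the start; grey: the segment without DKO reads). Points are the mean of the 3 DKO or the 3 WT samples and bars span their lowest and highest sample. The starts form deep valleys in both groups, and Tet3 has further partly methylated valleys about 7 to 16 kb upstream and 26 to 34 kb downstream, where most DKO points lie above the WT points.

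All 3 promoters placed here were nearly free of methylation at the start itself, in both groups. The 300 bases of the Tet2 promoter were at 0, 0 and 0% in DKO and 0, 2.65 and 0% in WT. The 300 bases of the Tet1 promoter were at 4.58, 0.813 and 8.82% in DKO and 5, 7.69 and 0.763% in WT, with overlapping groups. The Tet3 promoter was at 4.92, 8.06 and 3.31% in DKO and 0, 2.08 and 0% in WT. There all DKO samples exceeded all WT samples, by 4.74 points (SE 1.56; exact permutation p = 0.1). With each CpG weighted equally, over the 10 Tet3 promoter CpGs read in every sample, the groups overlapped (6.67 points, exact permutation p = 0.2).

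The repetitive Tet2 promoter was read unevenly. It held 253, 233 and 203 reads over its 57 CpGs in the DKO samples and 18, 189 and 66 in the WT samples, so WT replicate 1 gave little information there and had no read at 50 successive CpGs. The window chr3:133207001-133208000, which holds the Tet2 start, had an adjusted p of 0.0271 in the window test but a difference of only -1.62 points. It was at 0, 0 and 0% in DKO and 0, 4.85 and 0% in WT, so that single WT sample carried the difference, and it was below the 10 points that a call needed.

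Over the wider promoter windows, the run of 1 kb windows with at least 20 CpGs each around the start, no locus differed beyond the spread between replicates. For Tet2 (chr3:133206001-133209000, 155 CpGs) the level was 1.34, 3.88 and 0.459% in DKO and 0.697, 4.33 and 2.45% in WT. The difference was -0.60 points (SE 1.47; exact permutation p = 0.7) and turned positive with each CpG weighted equally. For Tet3 (chr6:83391001-83392000, 57 CpGs) the level was 19.9, 12.8 and 4.74% in DKO and 13.6, 5.19 and 4.21% in WT, a difference of 4.82 points (SE 5.29; exact permutation p = 0.6). For Tet1 (chr10:62348001-62351000, 123 CpGs) the level was 14.03, 14.3 and 19.03% in DKO and 17.1, 14.8 and 7.43% in WT, a difference of 2.67 points (SE 3.34; exact permutation p = 0.6). In each of the 3 loci the samples of the groups overlapped. With each CpG weighted equally over the 102 read in every sample, the Tet1 run no longer did, at 13.2% ± 1.33 in DKO and 10.6% ± 0.675 in WT (SD, n = 3 each; exact p = 0.1).

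The Tet1 promoter run was not uniform. Its middle window, chr10:62349001-62350000, just downstream of the start, was at 1.58, 0.486 and 0.305% in DKO and 0.775, 0 and 0% in WT. The window upstream of it, chr10:62350001-62351000, was at 26.6, 20.3 and 29.6% in DKO and 30.8, 39.8 and 13.4% in WT. The downstream one, chr10:62348001-62349000, was at 30.4, 47.1 and 43.2% in DKO and 37.3, 24.8 and 38.4% in WT. The unmethylated core was thus shared by all samples and the edges varied within each group.

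Downstream of the promoters the genes were highly methylated in both groups, and the differences were small. The gene side comprised all windows of the interval downstream of the promoter windows, without the segment. For Tet2 it was at 93.4, 93.0 and 93.4% in DKO and 92.1, 93.5 and 93.0% in WT, a difference of 0.366 points (SE 0.446; exact permutation p = 0.7). For Tet3 it was at 85.4, 87.2 and 86.6% in DKO and 87.8, 83.8 and 84.8% in WT, a difference of 0.953 points (SE 1.33; exact permutation p = 0.5). For Tet1 it was at 80.7, 76.1 and 77.9% in DKO and 78.1, 77.8 and 77.0% in WT, a difference of 0.596 points (SE 1.38; exact permutation p = 0.8). The groups overlapped in all 3 loci. With each CpG weighted equally, Tet3 and Tet1 did not overlap, DKO being 1.86 and 1.91 points higher (exact permutation p = 0.1 for each), and Tet2 did (0.926 points, exact permutation p = 0.2).

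The Tet3 and Tet1 intervals reach past the RefSeq gene lengths into the unmethylated starts of neighbouring genes. Bola3, which acts in mitochondrial iron-sulfur cluster assembly, starts 92202 bases downstream of the Tet3 start, and its CpG-dense window was at 2.14, 2.59 and 1.98% in DKO and 5.94, 1.08 and 3.07% in WT. Ccar1, a regulator of the cell cycle and apoptosis, starts 94956 bases downstream of the Tet1 start, and its windows were at 10.2, 2.27 and 3.90% in DKO and 14.2, 1.97 and 5.996% in WT. Restricted to the RefSeq gene length, a choice made after the data were seen, Tet3 was at 90.1, 91.9 and 91.5% in DKO and 88.9, 87.4 and 87.4% in WT. All DKO samples then exceeded all WT samples, by 3.27 points (SE 0.759; exact permutation p = 0.1). Within its own gene length Tet1 was at 88.2, 86.8 and 88.2% in DKO and 85.2, 84.4 and 86.9% in WT (2.23 points, exact permutation p = 0.2), and Tet2 differed by 0.231 points (exact permutation p = 0.5).

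Upstream of the promoters placed here, all 3 loci had a higher mean in DKO. For Tet2 the upstream side was at 91.4, 95 and 93.9% in DKO and 88.9, 87.8 and 90.5% in WT, without overlap (4.37 points, SE 1.33; exact permutation p = 0.1). For Tet1 it was at 83.9, 90.6 and 88.6% in DKO and 83.1, 81 and 81.3% in WT, without overlap (5.92 points, SE 2.11; exact permutation p = 0.1). For Tet3 it was at 67.9, 62.3 and 58.6% in DKO and 56.5, 49.9 and 64.4% in WT, with overlap (5.98 points, SE 4.995; exact permutation p = 0.4). These region levels weight CpGs by reads, so they also move with which CpGs a library covered. With each CpG weighted equally over those read in every sample, the Tet3 upstream side no longer overlapped (64.0% ± 2.02 in DKO and 58.6% ± 2.34 in WT, SD, n = 3 each; exact p = 0.1). The Tet2 upstream side then did (92.2% ± 1.91 in DKO and 89.2% ± 2.31 in WT, SD, n = 3 each; exact p = 0.2), and Tet1 kept its separation (88.2% ± 0.758 in DKO and 83.0% ± 3.48 in WT, SD, n = 3 each; exact p = 0.1).

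**Figure D3:**
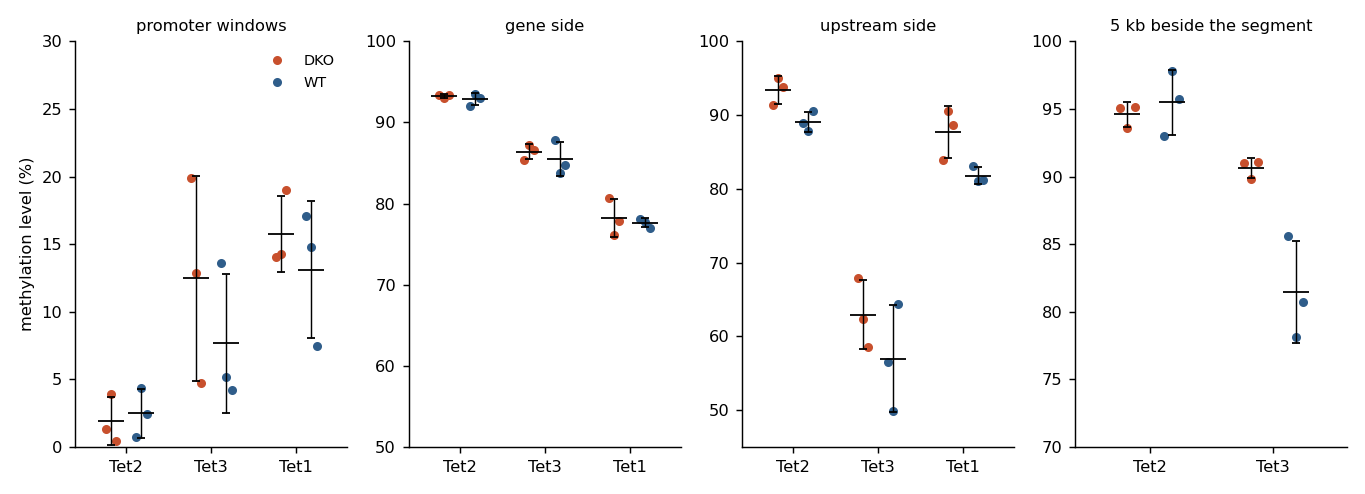
Methylation level (vertical axis, %, with a different range in each panel) of the promoter windows, the gene side, the upstream side and the 5 kb beside the segment, for Tet2, Tet3 and Tet1. Points are samples, with the 3 DKO samples to the left of the 3 WT samples, and the horizontal bar and whiskers are their mean and SD. The groups are apart beside the Tet3 segment and on the upstream sides of Tet2 and Tet1, and they overlap in the promoters and on the gene sides.

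The upstream side of Tet3 had the lowest level of the 3 upstream sides. The RefSeq record of Tet3 extends 15530 bases beyond the promoter placed here. For Tet3, upstream therefore means upstream of the placed start, and up to that distance the longest form of the gene covers this side. The gene runs on the minus strand, so the longest form begins at that distance. If distances are alike on both builds, this other start falls within a CpG-dense run of 238 CpGs. That run, chr6:83403001-83408000, was centred about 13.8 kb upstream of the placed start. It was at 31.9, 35.4 and 27.2% in DKO and 25.6, 18.1 and 30.5% in WT, with overlap. Its core, chr6:83406001-83407000 with 122 CpGs, was at 0% in all 6 samples. At the shore of that run, chr6:83404001-83405000 was at 84.1, 86.0 and 86.1% in DKO and 75.7, 82.4 and 74.2% in WT, without overlap (adjusted p = 0.56). Of the 20 tested upstream windows of Tet3, 16 had the higher mean in DKO and in 7 all DKO samples exceeded all WT samples, while in none did all fall below. Over all tested autosomal windows these shares were 58.2% with the higher mean in DKO, 9.05% wholly above and 3.75% wholly below. Among windows with a mean level of 10 to 80% they were 71.7, 19.1 and 2.16%. The 20 windows were not matched to a background by level. A noncoding gene, B230319C09Rik, starts on the opposite strand 77 bases from the Tet3 start, within the same promoter window.

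No 1 kb window of the 3 loci passed the call, which required an adjusted p under 0.05 and at least 10 points. The count was 0 of 192 by the quasi-binomial test, against 0.497% called over all 774732 tested windows, 0.490% higher and 0.00723% lower in DKO. At an unadjusted p under 0.05, 21 windows were higher and 6 lower in DKO, against 7.32% and 1.95% of all tested windows. limma on log2 ratios called 0, in the loci and over all windows, with 10 windows of the loci higher and 4 lower at an unadjusted p under 0.05, against 40094 and 15048 of the 774732. Fisher's exact test on pooled reads, which ignores differences between samples of a group, called 13 higher and 2 lower, against 5.56% and 0.908% of all windows. All DKO samples exceeded all WT samples in 17 of the 192 windows (8.85%, against 9.05% over all) and fell below them in 9 (background 3.75%). The DKO mean was the higher in 112 windows, 58.3% against 58.2% over all, and the median difference was 0.767 points against 0.928 over all. By the shares wholly above and with the higher mean in DKO, the 3 loci as a group thus lay near the background. By the quasi-binomial test, windows with an unadjusted p under 0.05 were somewhat more frequent than over all tested windows, in either direction. So were windows wholly below. These excesses were not tested.

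Most of the partly methylated windows lay in Tet3, which also had the most tested windows. These are windows with a mean level of 10 to 80% over the 6 samples. Tet3 held 17 of the 30 such windows among its 87 tested ones, Tet1 11 among 63 and Tet2 2 among 42. Over all autosomes, 114826 of 774732 tested windows were of this class. Of the 17 in Tet3, 14 had the higher mean in DKO, 5 were wholly above WT and none wholly below, with a median difference of 9.92 points. Of the 11 in Tet1, 6 had the higher mean in DKO, 2 were wholly above and 1 wholly below, with a median of 6.77 points. Over all 114826 tested windows of this class, 71.7% had the higher mean in DKO, 19.1% were wholly above, 2.16% wholly below, and the median difference was 5.57 points. In this class 2.85% of all windows were called higher and 0.0357% lower, and 0 of the 30 were called. No test of the difference between the loci was made.

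**Figure D4:**
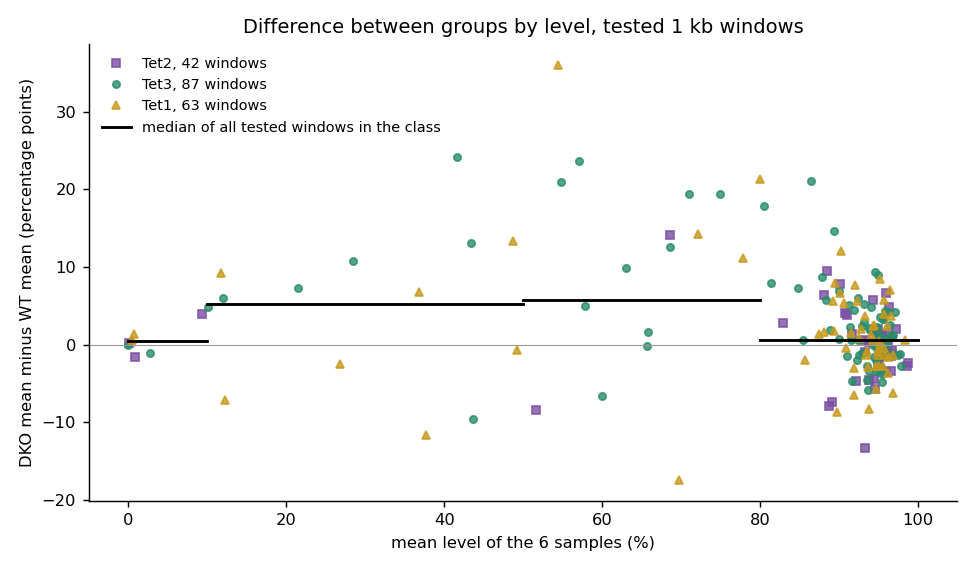
DKO mean minus WT mean (vertical axis, percentage points) against the mean level of the 6 samples (horizontal axis, %) for the 192 tested 1 kb windows, 1 point each, by locus. Black lines are the medians of all tested autosomal windows in each class of level. Windows above 80% cluster near 0, and the Tet3 windows between 10 and 80% lie mostly above 0.

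The tested windows with the widest differences in each locus are given as a description. Some windows with too few reads for the test differed more, such as chr6:83386001-83387000 in Tet3 by 35.3 points, with as few as 9 reads in a DKO and in a WT sample. In Tet1, chr10:62356001-62357000, 6.4 kb upstream of the start, was at 62.7, 69.0 and 85.7% in DKO and 23.1, 40 and 46.2% in WT, 36.1 points apart (adjusted p = 0.153). Its CpGs fell into 2 parts. The 6 CpGs at positions 62356421 to 62356570 had 45 methylated of 99 reads in DKO and 2 of 58 in WT, whereas the 4 at 62356784 to 62356980 had 74 of 76 in DKO and 32 of 34 in WT. The difference therefore lay in the 6 CpGs of the first part, with 27 of 58, 13 of 33 and 5 of 8 reads methylated in the DKO samples and 0 of 20, 2 of 24 and 0 of 14 in the WT samples. A read that covers several of these CpGs counts at each. DKO replicate 3 had only 1 or 2 reads per CpG there, so it rested on few molecules. With each CpG weighted equally the window still did not overlap, but the difference was 23.65 points.

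Another Tet1 window, chr10:62319001-62320000, was at 91.4, 94.2 and 86.5% in DKO and 69.0, 63.6 and 75.6% in WT (adjusted p = 0.175). The window chr10:62306001-62307000 overlapped, at 78.7, 91.7 and 67.6% in DKO and 47.8, 77.3 and 70.1% in WT, but did not with each CpG weighted equally (15.4 points). In the opposite direction, chr10:62344001-62345000, 5.6 kb downstream of the start, was at 65.6, 61.0 and 56.5% in DKO and 83.8, 78.9 and 72.7% in WT, 17.5 points lower in DKO without overlap (adjusted p = 0.456), and it overlapped with each CpG weighted equally. The other 2 of the 3 most negative tested Tet1 windows overlapped, by -11.7 points at chr10:62326001-62327000 and -8.64 points at chr10:62337001-62338000.

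In Tet3 the widest differences among tested windows were at chr6:83399001-83400000 and chr6:83401001-83402000, 7.8 and 9.8 kb upstream of the placed start. Both windows lay within the 15530 bases by which the RefSeq record extends beyond the placed promoter. The first was at 49.4, 52.3 and 59.4% in DKO and 31.0, 18.3 and 39.1% in WT (24.2 points, adjusted p = 0.196). The second was at 72.2, 75.4 and 59.0% in DKO and 48, 36.2 and 51.5% in WT (23.6 points, adjusted p = 0.0947). Neither overlapped, and both kept that separation with each CpG weighted equally, by 22.0 and 12.9 points. In the first, the CpG at position 83399219 had 16 methylated of 16 reads in DKO and 8 of 27 in WT, while the CpG at 83399106 had 0 of 37 and 0 of 19. Of the 3 most negative tested Tet3 windows only chr6:83345001-83346000 did not overlap, at 89.4, 92.7 and 90% in DKO and 96, 97.4 and 96.2% in WT (-5.82 points, adjusted p = 0.525). The other 2, chr6:83306001-83307000 and chr6:83398001-83399000, differed by -9.64 and -6.61 points.

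**Figure D5:**
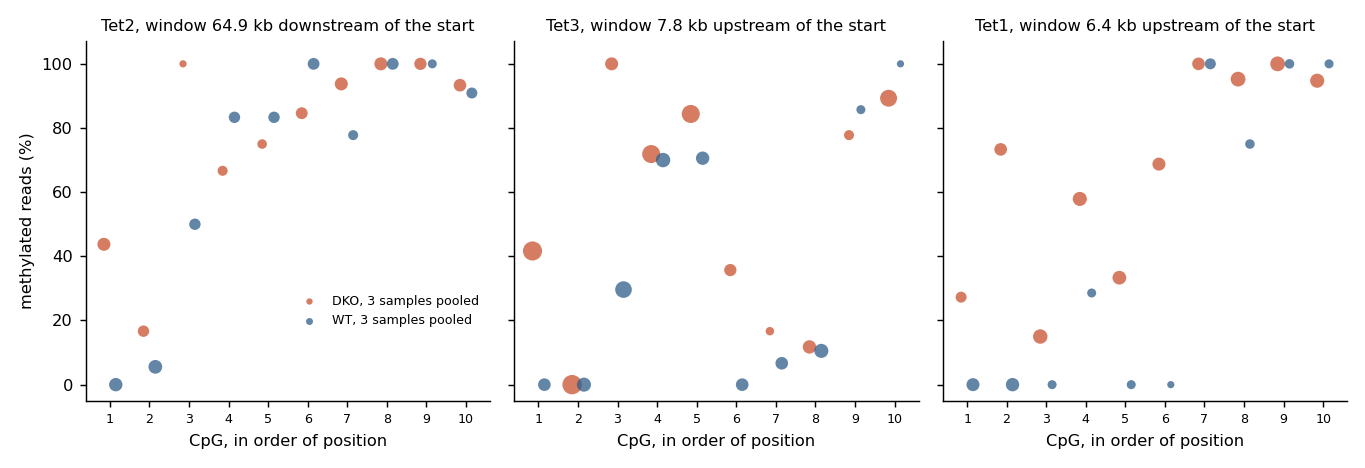
Share of methylated reads (vertical axis, %) at each CpG, in order of position (horizontal axis), of the tested 1 kb window with the widest positive difference in Tet2, Tet3 and Tet1. Points pool the reads of the 3 DKO or the 3 WT samples, and their area grows with the number of reads, 4 to 37 per point. In Tet1 the first 6 CpGs separate the groups and the last 4 are methylated in both.

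In Tet2 the widest positive difference among tested windows overlapped. The window chr3:133142001-133143000, 64.9 kb downstream, was at 72.2, 66.7 and 88.2% in DKO and 50, 68.8 and 66.1% in WT (14.1 points, adjusted p = 0.628). The next 2, chr3:133215001-133216000 and chr3:133220001-133221000, differed by 9.53 and 7.76 points with overlap. The widest negative tested one, chr3:133198001-133199000 at 8.9 kb downstream, was at 89.2, 87.5 and 83.3% in DKO and 100, 100 and 100% in WT, without overlap (-13.3 points, adjusted p = 0.162). The other 2 negative ones, chr3:133193001-133194000 and chr3:133182001-133183000, overlapped, by -8.39 and -7.97 points. In none of the 42 tested Tet2 windows did all DKO samples exceed all WT samples, and in 2 all fell below, against 9.05% and 3.75% of all tested windows. Of the 42, 37 had a mean level of 80% or more, and over all tested windows of that class the shares were 7.18% and 4.10%.

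Summed over 5 kb, where each window holds more reads, 2 of 79 windows were called, both in Tet3 and both higher in DKO, against 0.675% of all 5 kb windows called higher and 0.0287% lower. The window chr6:83355001-83360000, which overlaps the end of the segment, where only WT has reads, was at 87.5, 88.1 and 89.7% in DKO and 82.1, 70.5 and 77.3% in WT (11.7 points, adjusted p = 0.039). The window chr6:83400001-83405000 lay upstream of the placed start but within the longest RefSeq form of Tet3. It was at 78.4, 83.0 and 73.2% in DKO and 63.4, 64.3 and 70.8% in WT (12.04 points, adjusted p = 0.0456). Both rose without overlap by read-weighted levels. With each CpG weighted equally the first kept its separation (11.6 points, exact permutation p = 0.1) and the second overlapped (9.04 points, exact permutation p = 0.2).

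A low-methylated CpG-dense window inside Tet1, chr10:62328001-62329000 with 28 CpGs, lay 21.6 kb downstream of the start. It was at 12.7, 12.3 and 23.9% in DKO and 11.1, 5.67 and 4.62% in WT. The groups did not overlap, DKO being 9.16 points higher (SE 4.29; exact permutation p = 0.1; 17.8 points with each of the 7 CpGs read in every sample weighted equally), and the window test gave an adjusted p of 0.423. Another CpG-dense window of Tet1, chr10:62282001-62283000, was highly methylated and lower in DKO without overlap, at 91.9, 94.6 and 96.6% in DKO and 97.7, 97.9 and 98.6% in WT (-3.71 points, SE 1.41; exact permutation p = 0.1).

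The other genes of the pathway were read at their promoters. The list of 28 genes covered enzymes that remove or repair oxidised cytosine, enzymes that make or destroy the TET cofactor or its inhibitors, partners and regulators of TET proteins, and the enzymes that write methylation. Promoters of 21 genes could be placed on autosomes, in 26 windows, all tested. None was called by the quasi-binomial test (0 of 26, with 2 higher and 3 lower in DKO at an unadjusted p under 0.05). With limma on log2 ratios the count was also 0, as it was over all tested windows. Over all tested windows 7.32% were higher and 1.95% lower at that unadjusted p. A call needs 10 points, which windows of very low level can hardly reach. Of all tested windows under 10% methylated, 0.131% were called higher. The 0 of 26 thus cannot show that these promoters were unchanged. Fisher's exact test on pooled reads called 1 of the 26 higher in DKO, against 5.56% of all tested windows. With 5 kb windows 1 of 23 was called higher, against 0.675% of all. The DKO mean was the higher in 14 of the 26, the median difference was 0.102 points, and 20 windows were under 10% methylated. Over all tested windows the DKO mean was the higher in 58.2%, with a median difference of 0.928 points. Among those under 10% the values were 63.8% and 0.51 points. Tdg, the glycosylase that excises the oxidised bases, was at 0.620% in DKO and 0.546% in WT, and Idh2, which makes alpha-ketoglutarate, at 3.83% in DKO and 1.49% in WT, both with overlap.

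Of the 26 windows of the list, 1 lay wholly above WT in DKO and 2 wholly below, against 9.05% and 3.75% of all tested windows. Sdha, a subunit of succinate dehydrogenase, was at 2.24, 3.62 and 2.04% in DKO and 1.32, 1.86 and 0% in WT. Fh1, fumarate hydratase, was at 1.64, 2.05 and 1.56% in DKO and 2.43, 4.42 and 2.48% in WT. One of the windows of Ebf1, a B-cell transcription factor known to interact with TET2, was at 5.77, 6.29 and 2.66% in DKO and 9.96, 11.3 and 13.4% in WT (adjusted p = 0.45). The Sdha window was the higher in DKO and the other 2 the lower, by at most 6.67 points. Dnmt3l, a cofactor of the de novo methyltransferases, was the only highly methylated promoter of the list, at 89.4, 94.3 and 83.8% in DKO and 84.4, 83.7 and 62.5% in WT, with overlap.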

How the data were processed

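The authors deposited, for 3 DKO and 3 WT samples, the count of methylated reads per CpG and of total reads, with no normalisation and no pooling. The alignment tool BSMAP 2.74 and the build mm9 come from the list per the submitters' processing notes. No source used here states how reads were filtered or trimmed, or whether duplicates were removed, and duplicates would widen the true error of each level.

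Counts were summed over autosomal 1 kb windows. Those with 3 or more CpGs and no sample under 20 reads entered a quasi-binomial fit of genotype, its dispersion moderated with squeezeVar of limma 3.58.1 (R 4.3.3) and kept at 1 or above. Benjamini-Hochberg adjustment ran over 774732 windows. A window was called where the adjusted p fell below 0.05 and the means differed by 10 points or more. The fit was also run on simulated reads with noise drawn from its own fitted dispersion. That run cannot show a misfit to the real data. Regions were compared by two-sided exact permutation tests over samples (Python 3.11.15), unadjusted over regions, so p-values measure only the spread between these samples.

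A RefSeq promoter was placed on mm9 where at least 6 CpGs, a share of 0.8 or more of its CpGs, matched listed positions at 1 place. Promoter windows are runs of windows with 20 or more CpGs at the start. Segments are the longest runs of successive CpGs without a DKO read, of at least 20 CpGs. The windows named are the promoter windows, the 3 most positive and 3 most negative tested ones of each locus, and the pathway windows without overlap. Other windows, and Tdg, Idh2 and Dnmt3l, were named after their values were seen. The loci, lists and tests were chosen with earlier results of these data known. Of the pathway list, Neil2, Idh3a, Cxxc5, Wt1, Zscan4c and Ogt were not analysed here, and 1 further gene is not reported here. Alternatives were other read minima, window sizes, weightings and tests, a replicate block, and leaving out each sample.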

Additional observations from a re-analysis of the deposited data

How the results depend on the processing

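Of the differences in level, those of the Tet3 promoter windows, the Tet3 gene side and the Tet3 flanks kept their direction when each sample was left out (1.13 to 8.69, 0.110 to 2.14 and 7.498 to 11.2 points). The small ones turned: the Tet2 promoter windows ran from -1.59 to 0.320 points, the Tet1 promoter windows from -0.167 to 4.66, the Tet2 gene side from -0.0391 to 0.693, the Tet1 gene side from -0.650 to 1.66 and the Tet2 flanks from -2.15 to 0.249. The Tet2 promoter windows were also at 1.77 over CpGs read in every sample and at 3.28 as a mean of per-CpG levels, the Tet2 gene side at -1.37 as such a mean, the Tet2 flanks at 0.343 over 10 kb and the Tet3 flanks at 5.05 over 10 kb, with overlap, and at -5.03 over 1 kb, where 2 DKO samples lack reads on 1 side. The Tet3 segment's relative depth, -0.681 in DKO minus WT, was -0.708 against the rest of the interval and -0.724 over whole windows. Without any 1 sample, with a minimum of 10 or 40 reads, with 500 bp windows, with limma or with the replicate block, 0 windows of the loci were called. Over all windows, the 3798 called higher in DKO became 29 to 738 without any 1 sample, 303 and 269 with a minimum of 10 and 40 reads, and 0 with limma, the replicate block or 500 bp windows. Fisher's exact test on pooled reads called 15, and 5 kb windows gave 2. Same-numbered samples deviated together only very weakly (r = 0.00337, 0.00359 and 0.00332 across windows, other pairs -0.00204 to -0.00136), although each sample correlated best with its own number. Counting error at these depths lowers such correlations, so the check cannot settle whether the numbers pair the samples. In the replicate block the region differences are the same by construction, and 3 pairs cannot give a sign-flip exact p below 0.25, so that test could pass no threshold. Among the windows named, Tet2 133193001 ran from -21.2 to 0.864 points (without DKO replicate 2) when each sample was left out and was at 12.5 with CpGs weighted equally, Tet3 83306001 ran from -19.1 to 1.82 (without WT replicate 2), and Tet2 133220001 and Tet3 83398001 at -3.16 and 5.98 with CpGs weighted equally, a weighting added after the data were seen. In all, 295 alternatives kept the direction and, where a call was made, the side of the threshold. Another 16 changed direction, 10 newly passed the threshold, of which 9 by Fisher's test, and 2 moved by more than the spread between replicates. The cause of these changes was not tested. Many of the 295 could not change direction. A window's difference does not depend on the test or the read minimum, and leaving out a DKO sample does not change the segment depths. The tally is thus no measure of robustness.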

Other observations

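One window moved with which CpGs a library covered. In the untested window chr10:62353001-62354000, 3.4 kb upstream of the Tet1 start, DKO replicate 2 was at 89.7%, whereas DKO replicates 1 and 3 were at 17.1 and 20.8% and the WT samples at 29.4, 17.9 and 26.5%. Its 3 CpGs at positions 62353031 to 62353347 were methylated in 46 of 48 reads in DKO and 21 of 25 in WT. Its 4 CpGs at 62353703 to 62353884 were methylated in 0 of 50 reads in DKO and 0 of 65 in WT. DKO replicate 2 had 35 reads on the first CpGs and 4 on the others, against 6 and 29 in DKO replicate 1, 7 and 17 in DKO replicate 3, and 6 and 11, 8 and 31, and 11 and 23 in the WT samples. At the level of single CpGs the boundary between methylated and unmethylated DNA was the same in both groups.

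Over the CpGs read in every sample, the number with a higher pooled level in DKO against a lower one was 86 against 32 on the upstream side of Tet3, 49 against 27 on that of Tet1 and 33 against 30 on that of Tet2. These counts were made after the data were seen and were not tested, and DKO pools hold more reads per CpG than WT pools.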
